A study of Caenorhabditis elegans with 6 samples.

Results

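Argonaute proteins are the effectors of RNA silencing: each binds a small RNA and uses it as a guide to matching transcripts. In C. elegans they divide by the small RNAs they carry. ALG-1 and ALG-2 bind microRNAs, RDE-1 and ERGO-1 bind primary small interfering RNAs, PRG-1 binds piRNAs, and a large worm-specific branch (the WAGO proteins) together with CSR-1 binds 22G RNAs, which RNA-dependent RNA polymerases copy from target transcripts. CSR-1 is best known in the germline, where it is essential for fertility and accompanies transcripts that stay expressed.

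The 10 Argonaute genes followed here were csr-1, prg-1, ergo-1, rde-1, alg-1, alg-2, ppw-1, ppw-2, hrde-1 and nrde-3, of 20422 genes in the authors' deposited table. They were chosen by name, with earlier results of these data known. Of the 10, 9 stand in the table under that name. The row of hrde-1 is listed as C16C10.3 and was matched by its gene ID. A further 13 Argonaute genes of the table were used for comparison.

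The samples were whole sterile adults of 2 genotypes, with 3 samples each. Strain SS0415 carried mes-1(bn84ts), and strain SS1224 carried daf-2(e1370) as well as mes-1(bn84ts). Both genotypes therefore lacked normal mes-1 function, which is needed for the founder cell of the germline to form, and differed in daf-2, which encodes the insulin/IGF-1 receptor. They are called single and double mutants below. Per the labels' protocols, embryos came from a 24°C culture, developed at 15°C from day 1, returned to 24°C as adults on day 5 and were picked on day 6, 100 worms a sample. The labels call the worms germlineless, judged by eye from the absence of embryos, so germ cells that made no embryo would not have been seen. The sources used here do not say whether the samples came from separate cultures, so a p-value speaks of the spread among these samples alone, part or all of which could be technical.

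Fold changes are those of double over single mutants, on the log2 scale. A gene is said to be called where DESeq2 gave it an adjusted p under 0.05 in the deposited table. Levels are RPKM, reads scaled by transcript length and library size, given once per genotype and so without an error. The authors' deposited table gives no standard error, so an implied one was derived from each fold change and its p-value, and the 95% intervals below rest on it. In these bulk samples, fewer cells of a type and less RNA per cell cannot be told apart. As a check of the genotype label, sod-3, a superoxide dismutase gene known to rise in daf-2 mutants, stood 7.93-fold higher in double mutants per the authors' deposited table (DESeq2 adjusted p = 2.16e-20).

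The libraries were uneven. Reads of genes with low counts, taken apart by library as described further on, showed that the deepest library of each genotype held 79.0% (single) and 70.0% (double) of the summed normalized reads of 12 germ cell markers. The other 8 of the 20 markers listed, and csr-1, prg-1, hrde-1 and wago-1, could not be resolved by library.

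csr-1 rose in double mutants and was the only one of the 10 genes called in either direction. The authors' deposited table gave it 29.5 RPKM in single and 114 RPKM in double mutants. The rise was 3.70-fold, with an implied 95% interval of 2.68 to 5.11 (log2 fold change 1.89, implied SE 0.24, adjusted p = 2.54e-13, DESeq2), per the authors' deposited table. Over all 9820 genes with an adjusted p, 3.92% were called higher, 6.35% lower and 10.3% in either direction, so 1 call among 10 genes is close to the share of the whole table. None of the 10 was called lower by DESeq2, and none had a negative fold change with an unadjusted p under 0.05. Their median log2 fold change was -0.05, against -0.03 over the 9820 genes.

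The gene lies on the plus strand of chromosome IV, from 7957568 to 7962109 in the coordinates of the authors' deposited table, whose genome build the sources used here do not give. Among the 385 genes called higher, csr-1 ranked 91 by fold change, 23 by adjusted p and 49 by mean normalized count. Measured against every gene of the table, its RPKM moved from percentile 86.5 in single mutants to percentile 95.4 in double mutants. Current annotation (WBcel235) gives the gene 3 transcripts with 11, 12 and 13 exons, of which F20D12.1b.1 starts inside a coding exon of the others and encodes a shorter protein. The longer protein form is known from spermatogenesis and the intestine and the shorter one from the germline, but the table holds 1 value per gene and does not separate them. Neither neighbouring gene was measured well enough for an adjusted p: ceh-19, a homeobox gene 1681 bases to the left on the minus strand, had 2.18 and 4.70 RPKM in single mutants and double mutants in the authors' deposited table. On the right, 5336 bases away, F57H12.5 had 0.229 and 0.449 RPKM in the authors' deposited table. No other gene's span in the table overlaps csr-1. In WBcel235, by contrast, exons of F57H12.4 share bases with it on the same strand, and reads from shared bases cannot be separated. Whether this touched the deposited values is not known, since the spans of the pair lie apart in the authors' deposited table. The authors' deposited table places F57H12.4 from 7970203 to 7973793, with 0.398 RPKM in single and 0.390 in double mutants, a deposited log2 fold change of 0.03 and no adjusted p.

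**Figure D1:**
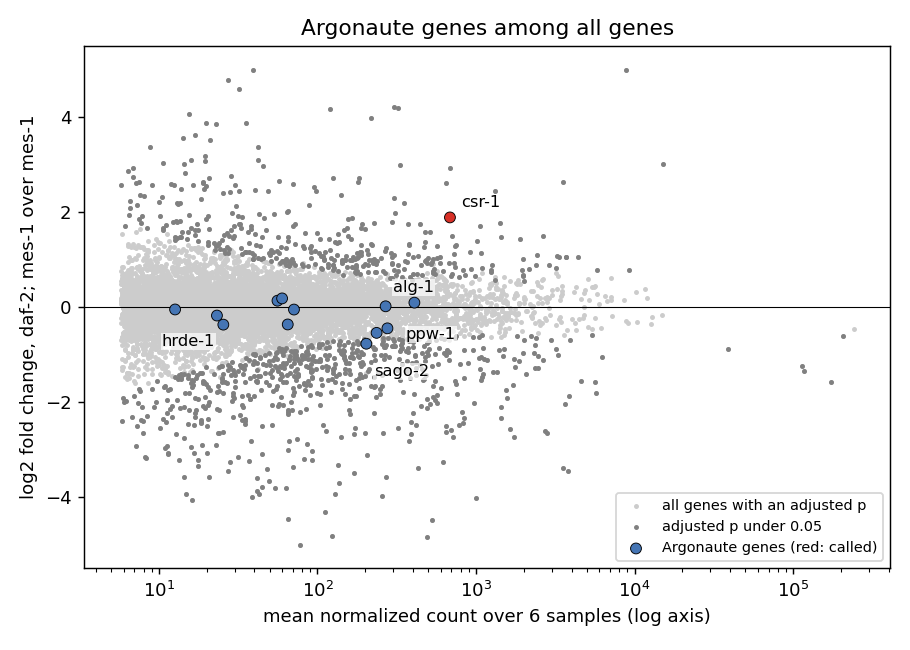
Log2 fold change of double over single mutants against the mean normalized count over the 6 samples (log axis) for the 9820 genes with an adjusted p, dark grey where called. The 13 Argonaute genes with an adjusted p are circled in black. csr-1, in red, stands at 1.89, and the other 12 lie between -0.77 and 0.18.

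The microRNA Argonautes had nearly equal levels in both genotypes. For alg-1 (chromosome X, 13949073 to 13956187) the authors' deposited table gave 21.9 RPKM in each genotype, and its implied 95% interval on the log2 scale ran from -0.44 to 0.47 around a fold change of 0.02 (adjusted p = 0.992, DESeq2). As a ratio that interval is 0.738 to 1.39. Its close relative alg-2 (chromosome II, 873183 to 878961) was expressed at a lower level, 6.76 RPKM in single mutants and 7.71 in double mutants in the authors' deposited table, with a fold change of 0.18 (interval -0.42 to 0.78, adjusted p = 0.91, DESeq2). Of 10 other genes of microRNA production and action, DESeq2 called none, where 10.3% of all genes were called. The largest positive value was 0.38 for vig-1, which encodes a subunit of the silencing complex, and the most negative -0.42 for tsn-1, a Tudor nuclease gene of the same complex (DESeq2 adjusted p of 0.476 and 0.273 per the authors' deposited table).

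The primary Argonautes of the small interfering RNA pathways were not called either. RDE-1 receives small RNAs cut from introduced double-stranded RNA and is required for RNA interference in every tissue. Its gene (chromosome V, 9987891 to 9991618) had 8.55 RPKM in single mutants and 6.25 in double mutants in the authors' deposited table, with a log2 fold change of -0.37 (interval -1.08 to 0.35, adjusted p = 0.777, DESeq2). ERGO-1 binds the 26G RNAs of oocytes and embryos. The ergo-1 gene (chromosome V, 1008802 to 1018359) was read at a level like that of rde-1 in these sterile adults, with 7.70 and 7.21 RPKM in the authors' deposited table, and a log2 fold change of -0.05 (interval -0.76 to 0.66, adjusted p = 0.986, DESeq2). In WBcel235 the exons of ergo-1 overlap those of R09A1.2 on the opposite strand, and their spans also overlap in the authors' deposited table. The library kit does not mark strand, so reads from shared bases cannot be told apart. None of the 10 genes listed for double-stranded RNA processing and 26G RNA production was called by DESeq2, against 10.3% of all genes. None had an unadjusted p under 0.05. Among them, the Dicer gene dcr-1 had a deposited log2 fold change of -0.14.

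PRG-1 is the piRNA-binding Argonaute of the germline. The authors' deposited table gave prg-1, on chromosome I, 3.56 RPKM in single mutants and 3.23 in double mutants. Its log2 fold change of -0.18 had a wide interval, from -1.20 to 0.85 (adjusted p = 0.956, DESeq2), so neither a sizeable rise nor a fall to 0.435 of the level in single mutants is left out by it. The close copy prg-2, annotated as a pseudogene, may share reads with it. An overlapping gene on the opposite strand, D2030.12, may also contribute reads.

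The secondary Argonautes differed widely in level. PPW-1 is required for efficient RNA interference in the germline, yet ppw-1 (chromosome I) was the most abundant of the 23 Argonaute transcripts in single mutants, with 74.8 RPKM, and had 58.3 in double mutants in the authors' deposited table. Its log2 fold change was -0.45 (interval -1.01 to 0.11, adjusted p = 0.485, DESeq2). The RPKM of ppw-1 was 1.72 times what its normalized count and annotated exon length would give for the median gene, a ratio at percentile 92.0 of 8563 genes, while sago-2, a gene of very similar sequence, was at 0.886. Reads may be shared between such copies, and ppw-1 has 9 annotated transcripts. The reason for its ratio was not tested, and the level of ppw-1 is uncertain. NRDE-3 carries small RNAs into the nuclei of somatic cells, and nrde-3 (chromosome X, 372234 to 376974) had 5.83 and 6.52 RPKM in single mutants and double mutants in the authors' deposited table (a change of 0.13 on the log2 scale, interval -0.53 to 0.80, adjusted p = 0.949, DESeq2).

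HRDE-1 is the nuclear Argonaute of inherited silencing in germ cells, and PPW-2 is a germ granule protein. For hrde-1 (chromosome III, 4172308 to 4176135) the authors' deposited table gave 4.08 RPKM in single mutants and 1.57 in double mutants, a log2 ratio of -1.38. The deposited log2 fold change was much nearer to 0, at -0.37 (interval -1.48 to 0.74, adjusted p = 0.9, DESeq2), and hrde-1 was not called. Of the 10 genes, hrde-1 was the only one whose RPKM ratio lay further than 1 implied SE from its deposited fold change. The least abundant of the 10, ppw-2 on chromosome I, had 1.49 and 1.35 RPKM in the authors' deposited table, with a log2 fold change of -0.05 (interval -1.21 to 1.11, adjusted p = 0.99, DESeq2).

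**Figure D2:**
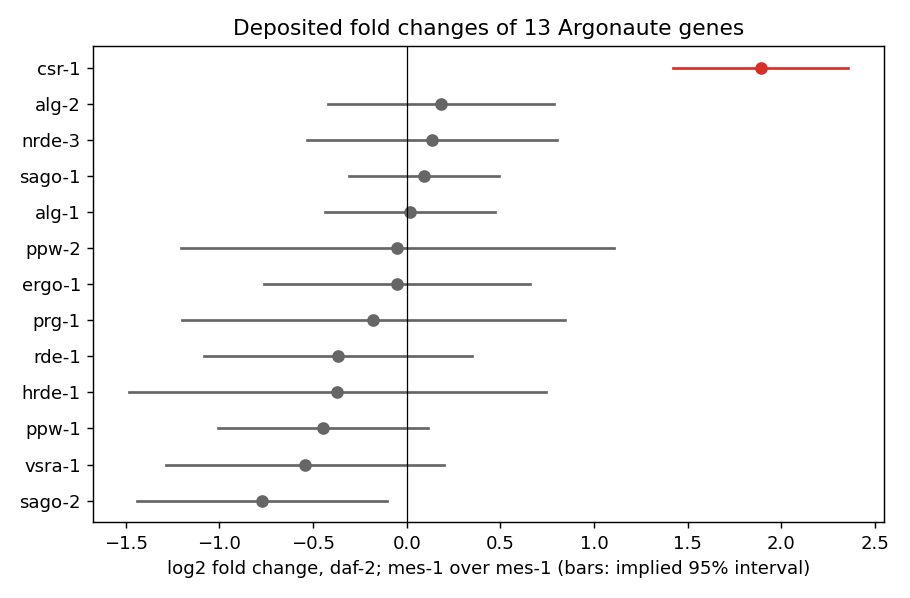
Deposited log2 fold changes (points) of the 13 Argonaute genes with an adjusted p, with the implied 95% interval as a bar. The interval of csr-1, 1.42 to 2.35, lies above 0 and above the other 12 intervals, the highest of which ends at 1.11.

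Of the 13 further Argonaute genes, 3 had an adjusted p and none of these was called by DESeq2. The somatic Argonaute genes sago-1 and sago-2 encode secondary Argonautes of the RNA interference response; the span of sago-2 overlaps that of F56A6.4 on the opposite strand. In the authors' deposited table sago-1 had 47.3 RPKM in single mutants and 51.2 in double mutants, with a log2 fold change of 0.09 (interval -0.31 to 0.49, adjusted p = 0.941, DESeq2). For sago-2 the authors' deposited table gave 34.3 and 19.1 RPKM and a log2 fold change of -0.77 (implied SE 0.34, adjusted p = 0.168, DESeq2). Its implied interval, -1.44 to -0.10, leaves out 0, and its unadjusted p is the only one of the 3 under 0.05, but it did not pass the adjustment. For vsra-1 (C04F12.1 in the table) the authors' deposited table gave 34.3 and 22.8 RPKM and a log2 fold change of -0.54 (interval -1.28 to 0.20, DESeq2 adjusted p = 0.561). Over all 13 Argonautes with an adjusted p, 1 was called (7.69%, against 10.3% of all genes), and 8 had a negative fold change.

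The order of the most abundant Argonautes differed between the genotypes. In single mutants the authors' deposited table placed ppw-1, sago-1, sago-2, vsra-1 and csr-1 highest, in that order, with sago-2 and vsra-1 at the same 34.3 RPKM. In double mutants the order was csr-1, ppw-1, sago-1, vsra-1 and alg-1. Since each genotype has a single RPKM, neighbours in these orders cannot be separated by their spread. With each RPKM divided by its size relative to what mean count and exon length give, a check added after seeing the data, ppw-1 is no longer first in single mutants: sago-1 stands at 55.5, ppw-1 at 43.5 and csr-1 at 33.5, still the fifth, while csr-1 remains first in double mutants. csr-1 made up 10.2% of the summed RPKM of all 23 Argonaute genes as deposited in single mutants and 35.0% in double mutants, and 11.9% and 39.1% after that division. The other 22 summed to 259 RPKM in single mutants and 211 in double mutants in the authors' deposited table.

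**Figure D3:**
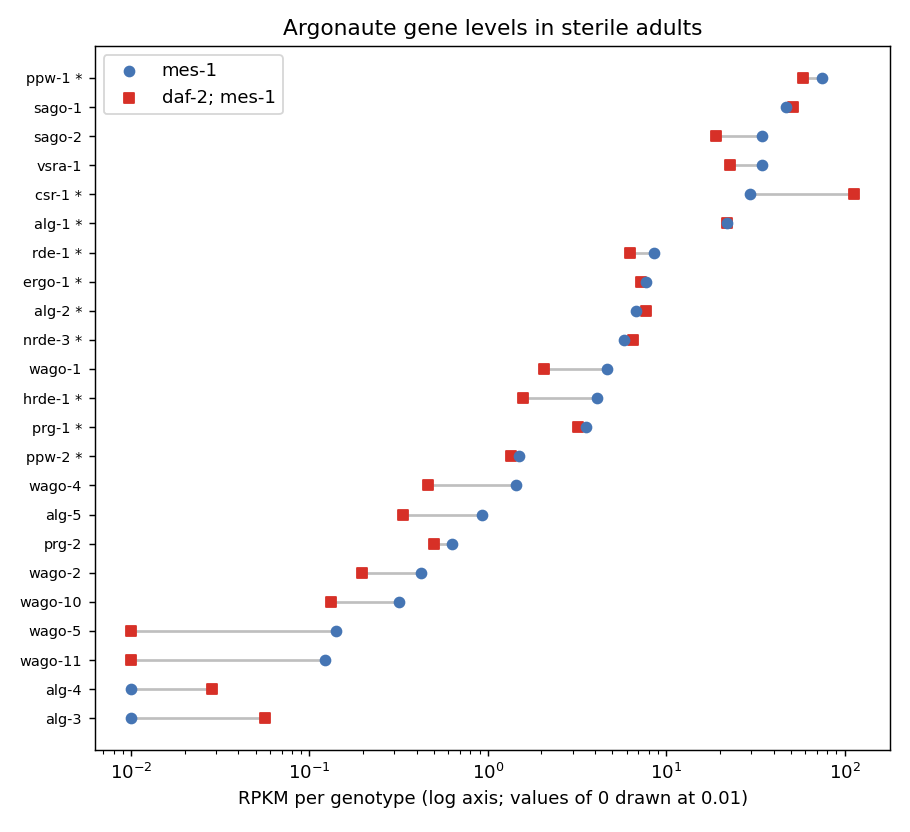
RPKM of 23 Argonaute genes in single mutants (blue circles, labelled mes-1) and double mutants (red squares, labelled daf-2; mes-1), log axis, ordered by the single-mutant level; asterisks mark the 10 genes followed here and a value of 0 is drawn at 0.01. csr-1 goes from the fifth place (29.5) to the top (114), while alg-1 has 21.9 in both genotypes.

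A set of 10 Argonaute genes had no adjusted p. Among them wago-4 had a mean normalized count of 8.63, above 5.75, the lowest mean that has an adjusted p. Of the 10, 9 had a mean under 10. For genes this low the deposited mean can be taken apart into whole reads of single libraries, because it is a sum of whole multiples of 6 amounts, each the worth of 1 read in 1 library. This gave exactly 1 solution for 8227 of 8228 genes. The RPKM columns show which genotype each amount belongs to, but not which numbered sample, so the libraries are named by depth: the deepest, the middle and the shallowest of each genotype. The deepest library, of single mutants, had 3.06 times the depth of the shallowest, of double mutants.

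Reads of several low Argonautes came mostly from the deepest library of each genotype. WAGO-4 is a germ granule Argonaute that passes silencing to offspring, and wago-4 (F58G1.1 in the table) had 66, 2 and 0 reads in the single-mutant libraries, from deepest to shallowest, and 16, 1 and 0 reads in those of double mutants. Divided by library size these were 36.9, 2.33 and 0 normalized reads in single mutants and 11.6, 0.936 and 0 in double mutants. A library with 0 reads allows up to 3, counting error only. For alg-5, an Argonaute gene of the microRNA branch (T23D8.7 in the table), all 50 reads lay in the deepest library of each genotype. Of these reads, 40 were in that of single mutants and 10 in that of double mutants. In WBcel235 the exons of alg-5 overlap cfi-1 on the opposite strand, but its span in the authors' deposited table overlaps no other gene. The pseudogene prg-2 had 20, 2 and 0 reads in single mutants and 9, 4 and 0 in double mutants. For wago-2, annotated as a pseudogene, the deepest single-mutant library held 18 of 20 single-mutant reads, but the deepest double-mutant library only 1 of 5. In contrast wago-10 had 6, 3 and 1 reads in single mutants and 1 in each double-mutant library, which is no concentration once depth is divided out: 3.36, 3.49 and 1.21 normalized reads in single mutants.

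The remaining low genes were at the edge of detection. The authors' deposited table lists alg-3 and alg-4, Argonaute genes of sperm development, at 0 RPKM in single mutants, and they had 2 reads and 1 read in all, both in the deepest double-mutant library. wago-5 and wago-11 had 5 reads each, all in single mutants, 5 of 5 and 4 of 5 of them in its deepest library.

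Summed over these 9 genes, the single-mutant libraries held 159, 9 and 2 reads from deepest to shallowest, and the double-mutant libraries 40, 10 and 1. Divided by library size, the deepest library held 87.3% of the single-mutant sum and 72.3% of the double-mutant sum. Over all 3237 resolved genes with a mean of at least 2, the median share in the same libraries was 33.0% and 35.3%, and 5.14% of those genes had over 80% of their single-mutant normalized reads in the deepest single-mutant library. The log2 ratio of the 9 genes' summed reads was -1.35 with all libraries and -0.22 without the deepest library of each genotype, where only 11 reads of single mutants and 11 of double mutants remained. These 2 libraries were picked after it was seen that they held the reads. Without the deepest single-mutant library alone the log2 ratio was 1.05, the opposite sign, and without the deepest double-mutant library alone it was -2.62.

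Reads of germ cell markers were spread over the libraries in a similar way, with exceptions. Of 20 germ cell markers, 12 could be resolved, and their summed normalized reads were 147, 23.3 and 15.7 in single mutants and 57.8, 19.6 and 5.14 in double mutants. More than 50% of the single-mutant normalized reads lay in the deepest library for 10 of the 12. For pgl-3, which encodes a P granule protein, all 40 single-mutant reads were in that library. The spermatogenesis markers spe-9 and msp-31 had 8 reads each in all 6 libraries together. Each had 2 of its 4 single-mutant reads in the deepest single-mutant library, but all 4 double-mutant reads of msp-31 lay in the deepest double-mutant library. For fbf-1, a regulator of germline stem cells, all 18 single-mutant reads lay in the deepest single-mutant library. The deepest double-mutant library held 28.4% of its double-mutant normalized reads. Over all 20 markers the RPKM summed to 63.8 in single mutants and 22.6 in double mutants in the authors' deposited table. Of the 20, 18 were lower in double mutants and none was at 0. DESeq2 called lower 1 of the 8 with an adjusted p (nos-2, -1.91, adjusted p = 0.0262), where 6.35% of all genes were called lower. The deposited log2 fold changes of these 8 had a median of -0.40. A large part of the fall in the sum comes from pos-1, with 14.5 and 1.53 RPKM but a deposited log2 fold change of -0.58, and puf-5, with 7.77 and 1.12 RPKM but -0.68, in the authors' deposited table. Without the deepest single-mutant library the log2 ratio of the 12 markers' summed reads was 0.50, against -1.17 with all libraries. The part of germ cells in the values of hrde-1, wago-1, wago-4 and alg-5 was not tested.

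**Figure D4:**
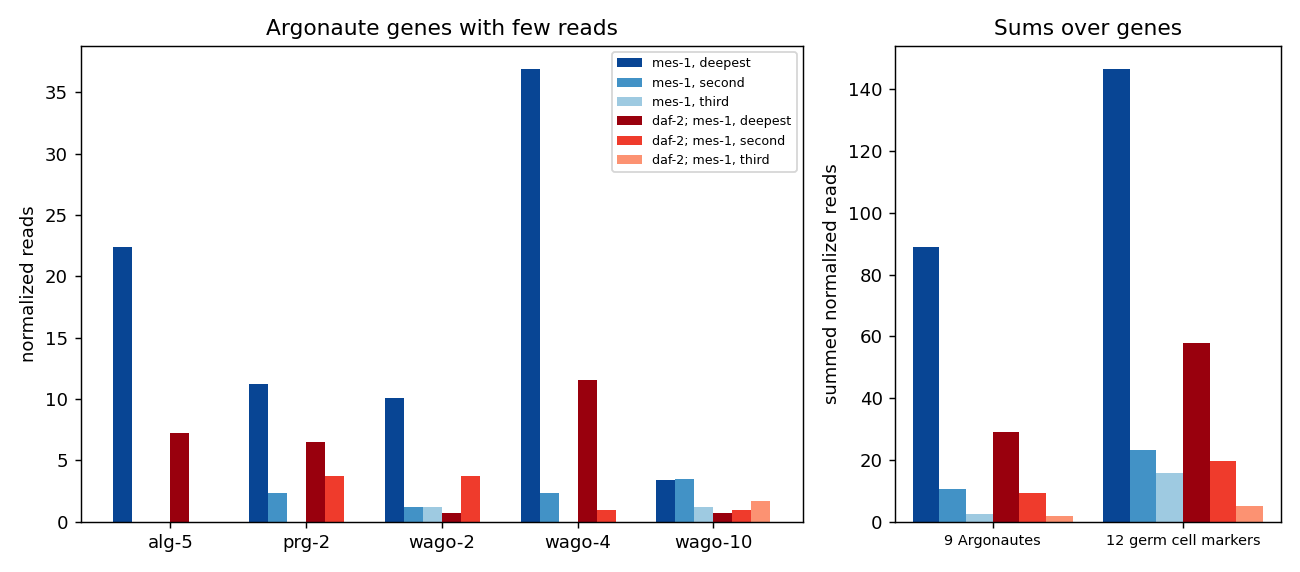
Normalized reads in each of the 6 libraries (bars; blue mes-1 single mutants, red daf-2; mes-1 double mutants, dark to light from deepest to shallowest) for the 5 resolved Argonaute genes with at least 10 reads (left), and summed over 9 Argonautes and 12 germ cell markers (right). The deepest single-mutant library holds 36.9 normalized reads of wago-4 against 2.33 and 0 in the other single-mutant libraries, and 147 of the germ cell marker sum.

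Among the 10 genes only ppw-2 came near to being resolved in this way. Its mean allowed 3 sets of reads, of which 2 also fit the RPKM ratio: 63, 4 and 0 reads in single mutants with 37, 8 and 1 in double mutants, or 23, 7 and 16 with 18, 24 and 0. The deepest single-mutant library would hold 88.3% of the single-mutant normalized reads in one case and 31.9% in the other, so the data do not say which applies. For prg-1 and hrde-1, 15 and 13 sets remained, and for the germline gene wago-1 (R06C7.1 in the table) 19. The gene wago-1 had 4.69 RPKM in single mutants and 2.06 in double mutants and no adjusted p in the authors' deposited table, although its mean normalized count of 27.5 is above the lowest mean that has one, 5.75. csr-1 has far too many reads to be taken apart, so its spread between libraries is known only through the adjusted p.

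RNA of whole worms does not show in which cells csr-1 was expressed, and markers of somatic tissues are given here beside its rise. Among 6 intestine markers DESeq2 called 4 lower, where 6.35% of all genes were called lower. These were pept-1, ifb-2, act-5 and vha-6, at -3.93, -3.49, -1.53 and -1.07 on the log2 scale, while elt-2 and ges-1 had 0.06 and 0.37, per the authors' deposited table. Summed intestine RPKM was 1008 in single mutants and 502 in double mutants. Most of that difference came from act-5, with 562 and 192 RPKM, while ges-1 was higher in double mutants (149 and 195 RPKM). Most markers of the other somatic tissues were not called. DESeq2 called higher 1 of 5 muscle markers (myo-3, 0.93), 1 of 6 neuron markers (snb-1, 0.64), 1 of 4 somatic gonad markers with an adjusted p (egl-13, 0.99) and none of 3 such hypodermis markers, where 3.92% of all genes were called higher. In the somatic gonad list inx-8 had -0.53 (DESeq2 adjusted p = 0.196), and the summed RPKM of that list was 146 in single and 130 in double mutants per the authors' deposited table. Summed RPKM in single and double mutants was 809 and 961 for muscle, 221 and 318 for neuron, and 948 and 1290 for hypodermis markers. The hypodermis sum was mostly col-19, with 934 and 1277 RPKM. The part of germ cells or of tissue make-up in the rise of csr-1 was not tested.

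No partner gene of CSR-1 passed the test. CSR-1 depends on the RNA-dependent RNA polymerase EGO-1, the helicase DRH-3 and the Tudor protein EKL-1 to make its 22G RNAs, on CDE-1 to trim their number by adding uridines, and works beside the helicase RDE-12. None of the 5 genes was called by DESeq2, where 10.3% of all genes were called, so a count of 0 among so few is close to that share. The authors' deposited table gave log2 fold changes of 0.04 for rde-12 (F58G11.2), -0.002 for drh-3, -0.06 for cde-1 (cid-1) and -0.10 for ekl-1. The authors' deposited table gave ego-1 1.61 RPKM in single mutants and 0.631 in double mutants. Its log2 fold change was -1.07 (implied SE 0.50, adjusted p = 0.198, DESeq2). The mean normalized count of ego-1, 16.2, is above the limit of 10 under which reads were resolved by library.

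The wider small RNA machinery showed no called gene. Lists for microRNA action, double-stranded RNA processing, piRNA production, 22G RNA amplification, CSR-1 partners, nuclear RNA interference and its spread between cells held 57 different genes, 49 of them with an adjusted p. DESeq2 called none of the 49, where 10.3% of all genes were called, and 4 had an unadjusted p under 0.05, all with negative fold changes. These were ego-1, mut-2, tsn-1 and sid-3. In the authors' deposited table mut-2, a nucleotidyltransferase gene of the mutator group that feeds 22G RNA production, stood at -1.21 on the log2 scale (DESeq2 adjusted p = 0.172). For sid-3 (kin-25 in the table), a kinase gene needed for import of double-stranded RNA, the authors' deposited table gave -0.63 (adjusted p = 0.0663, DESeq2). The double-stranded RNA channel gene sid-1 had 12.4 and 13.2 RPKM in the authors' deposited table. The median log2 fold change of the 49 genes was -0.11, and they ranged from -1.21 to 0.77, a span that does not reach the 1.89 of csr-1.

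The 5 called genes with levels most like those of csr-1 in both genotypes were acs-17, F38B6.4, tbb-6, F21H12.6 and his-10. Likeness was the distance between log2(RPKM + 1) values over the 2 genotypes, from 0.26 for acs-17 to 0.46 for his-10. In the authors' deposited table acs-17, an acyl-CoA synthetase gene, had 35.4 RPKM in single mutants and 110 in double mutants. With 1 value a genotype, this likeness is a description of these levels alone.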

How the data were processed

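Total RNA of 6 samples was depleted of ribosomal RNA and made into libraries with the NEBNext Ultra RNA kit, per the labels' protocols. That kit keeps no strand information. The submitters' processing notes list TopHat2, and DESeq2 as the authors' tool. Neither build nor annotation is stated there. Per the file headers, 1 column is a signal, the mean over samples of normalized counts that the authors made with DESeq2. Further columns are the authors' DESeq2 results per the file headers, log2 fold changes and Benjamini-Hochberg adjusted p-values. No deposited log2 fold change exceeds 5 in size and no adjusted p lies under 1e-20, limits that none of the 23 Argonautes reaches. Levels are RPKM that the authors computed with Cuffdiff2, 1 per genotype, per the file headers. No column holds values of a single sample, so no new test was run, and the total depth of each sample is unknown.

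Unadjusted p-values were recovered by inverting the adjustment over 9820 genes; within runs of tied adjusted values the largest possible p was used. Dividing the size of a fold change by the normal quantile for its p gave the implied SE. Fold changes that the authors' DESeq2 run moved towards 0 have an SE on that scale. Means under 10, printed with up to 10 significant digits, were resolved into whole reads. Recovery of p-values and of reads was tried on simulated data. All 7384 simulated means gave back their reads, and all 9820 simulated p-values lay within the recovered bounds. The simulation started from the known amounts that a read was worth in each library. It therefore did not test how these amounts were found or assigned to genotypes. Sets of reads for higher means had to match the log2 RPKM ratio within 0.546, the 95% quantile of that difference over 2907 resolved genes. Gene names were matched through gene IDs. Exon lengths, transcripts and exon overlaps came from WBcel235. Only 1.75% of 19899 gene starts equal those of WBcel235, so the positions and distances given are those of the authors' deposited table. Exon overlaps may differ in the gene models behind that table.

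The 10 genes and all lists were chosen with earlier results of these data known. The rule for named genes took all Argonautes, called list members, the neighbours of called genes, the 5 genes most like csr-1 and sod-3; other list members named were chosen after their values were seen. The sequence comparison planned was not run. Python 3.11.15, numpy 2.4.6, pandas 2.3.3, scipy 1.17.1 and matplotlib 3.10.9 were used.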

Additional observations from a re-analysis of the deposited data

How the results depend on the processing

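The count of 1 gene called higher and 0 called lower among the 10 was the same at adjusted p thresholds of 0.01 and 0.1. It also held with a mean normalized count of at least 10, with fold changes centred on the median of all genes, and without genes whose span overlaps another. These settings could not change it. The adjusted p was 2.54e-13 for csr-1 and 0.485 for ppw-1, the next lowest (DESeq2). All 10 means were above 10, centring leaves the adjusted p as it is, and only uncalled genes were dropped. The same holds for 2 settings added after seeing the data, names in the table only and all 23 Argonautes, 13 of them with an adjusted p. The median fold change of the 10 genes ranged from -0.09 to -0.02 on the log2 scale over its alternatives. Of 40 alternative values of single genes, 38 lay within 1 implied SE of the deposited one; the other 2 were those of hrde-1 as an RPKM ratio, -1.33 with a pseudocount of 0.1 and -0.98 with one of 1 (deposited -0.37). The cause was not tested. Leaving out the deepest library of each genotype, also added after seeing the data, took the log2 ratio of the 9 low Argonautes from -1.35 to -0.22 and that of the 12 germ cell markers from -1.17 to -0.66. With each library left out in turn, these ranged from -2.62 to 1.05 and from -2.32 to 0.50, positive in both cases only without the deepest single-mutant library. No paired analysis was possible because the table carries no value for a numbered sample. For the same reason no replicate could be left out of the deposited fold changes and calls.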

Other observations

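Transcripts that microRNAs restrain during larval development were read in these adults without a called change. In the authors' deposited table lin-28 had 10.4 RPKM in single and 14.4 in double mutants, and let-60 31.4 and 33.8. DESeq2 called none of the 6 such genes listed, where 10.3% of all genes were called. Their median log2 fold change was -0.06. Of the 6, 1 (lin-14, at -0.69) had an unadjusted p under 0.05 (DESeq2 adjusted p = 0.206).

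The uneven spread of reads between libraries extends beyond the Argonautes. Of the 3237 genes resolved into reads with a mean of at least 2, 166 had over 80% of their single-mutant normalized reads in the deepest single-mutant library, and 113 had over 80% of their double-mutant normalized reads in the deepest double-mutant library. There are 37 genes in the authors' deposited table with a mean at or above 5.75 and no adjusted p, among them wago-1, wago-4 and the oocyte genes oma-2 and puf-5.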
